A study of Mus musculus with 3 samples.

Results

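Necroptosis and death receptor signalling was followed through 9 genes chosen by symbol: the receptors Tnfrsf1a, Tnfrsf10b and Fas, the adaptor Fadd, the protease Casp8 and its relative Cflar, and the kinases and effector Ripk1, Ripk3 and Mlkl. Of these, 8 had a value in the authors' deposited table, with 16 of its 17910 transcripts and 8 of its 11886 genes. Fas had no value in the table analysed here, so the receptor of Fas ligand is not described.

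RNA came from mT3-2D-GFP, a mouse pancreatic cancer line of the KPC model on the C57BL/6 background that carries green fluorescent protein, and from GFP-positive cells sorted out of the tumours it formed. KPC is a genetically engineered mouse model of pancreatic cancer. One group was the line in culture, 1 group was sorted from tumours in C57BL/6 (WT) mice, and 1 group was sorted from tumours in B6.CB17-Prkdcscid/SzJ (SCID) mice. The SCID mutation removes T and B cells, while natural killer cells, macrophages and neutrophils remain. RNA of 6 WT tumours and of 5 SCID tumours was pooled in equal amounts, so each group is 1 library of the same single line. All 3 groups carry the KPC alleles and the GFP label, and the labels name no sort for the cultured cells. Mouse age is not given in the sources used here.

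Every value below is a log2 difference between a pair of libraries, taken from the authors' deposited table and averaged over a gene's transcripts. Levels and read counts in each library were not in that table, so the depth behind a value is unknown. With 1 library per group no difference has a replicate check and no test was made. The threshold for calling a gene is 2-fold, a log2 difference of 1. The only spread that can be computed is that between transcripts of the same gene, whose pooled SD over all genes was 0.33 for the SCID pool minus the line, 0.31 for the WT pool minus the line and 0.22 for the WT pool minus the SCID pool. It describes transcripts, which share reads, and not tumours. The 3 comparisons share libraries, and each is fixed by the other pair.

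Death receptors of the TNF family carry an intracellular death domain. Ligand binding assembles complexes around RIPK1 and FADD in which caspase-8 is activated and apoptosis follows, while c-FLIP, the product of Cflar, limits or shapes caspase-8 activity. Where caspase-8 is inactive, RIPK1 and RIPK3 form a second complex, RIPK3 phosphorylates MLKL, and MLKL breaks the plasma membrane: this lytic death is necroptosis. In epithelial tumours the pathway is known for its regulation by interferons and TNF and for frequent low expression of RIPK3 in cultured lines.

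The transcripts that stand for Ripk3 and Mlkl are not the only ones of these genes, and the sequences that tell them apart are shown because each gene's value rests on 1 transcript. For Ripk3 the table gave NM_001164108, 1 of 3 curated RefSeq transcripts. In GENCODE vM21 (GRCm38) it has 10 exons and 1964 exonic bases, of which 95.9% are also exonic in NM_019955. Its annotated reading frame has 422 codons against 486, because it opens at codon 65 of the longer frame. For Mlkl the table gave NM_001310613, 1 of 2 curated RefSeq transcripts, with 472 codons against 464 in NM_029005. The difference is a stretch of 24 coding bases, 8 codons from codon 448 on, at chr8:111314941-111314964 on the reverse strand. The annotated coding starts of Ripk3, with the start codon in capitals, and the Mlkl junction, with the extra bases in capitals, read 5′ to 3′ as follows.
Ripk3 NM_019955: ATGtcttctgtcaagttatggcctactggt
Ripk3 NM_001164108: ATGgttaatcttcgtaatgagaacgttctg
Mlkl NM_001310613: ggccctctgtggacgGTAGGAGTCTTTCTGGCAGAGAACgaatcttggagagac
Mlkl NM_029005: ggccctctgtggacggaatcttggagagac
Since nearly all exonic bases are common to the paired transcripts, the values cannot tell one form from the other.

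**Figure D1:**
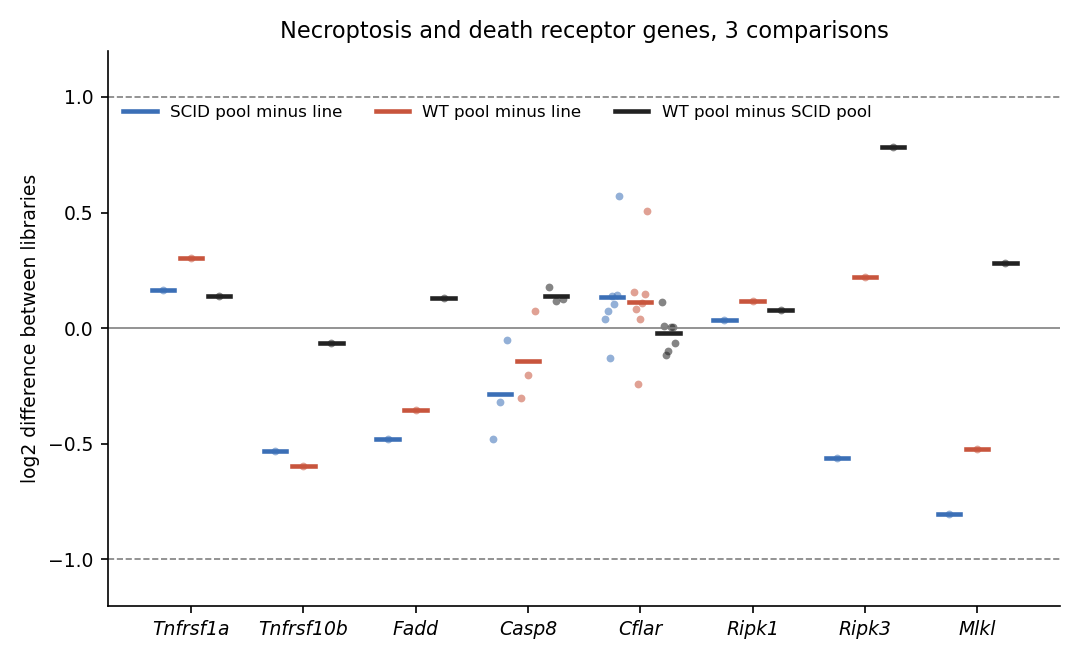
Log2 difference between libraries (vertical axis) for each of the 8 measured genes: SCID pool minus line in blue, WT pool minus line in red and WT pool minus SCID pool in black. Points are transcripts, bars are their mean and dashed lines mark 2-fold; no bar reaches 2-fold, and Ripk3 is the only gene with blue below and red above 0.

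The receptors went in different directions. Tnfrsf1a encodes TNFR1, the main receptor by which TNF triggers cell death. It stood at 0.17 in the SCID pool and 0.31 in the WT pool against the line, and 0.14 higher in WT than in SCID (0.09 after removal of the GC and length trend), so the order was line, SCID, WT. Tnfrsf10b encodes DR5, the mouse death receptor for TRAIL. It was lower than the line by similar amounts in both pools, at -0.53 in SCID (1.44-fold lower) and -0.60 in WT (1.51-fold lower), and differed by -0.06 between the pools. Both tumour pools thus lay below culture for the TRAIL receptor and above it for the TNF receptor. Tnfrsf1a lies on chromosome 6 from 125349723 to 125362483 and Tnfrsf10b on chromosome 14 from 69767472 to 69784411, both on the forward strand.

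Fadd, the adaptor that bridges death receptors to caspase-8, was at -0.48 in SCID (1.40-fold lower) and -0.35 in WT (1.28-fold lower) against the line. The WT pool was 0.13 higher than the SCID pool. Its order, SCID below WT below line, was the one seen for Mlkl and Casp8. Fadd lies on chromosome 7 from 144578323 to 144582436 on the reverse strand.

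Casp8, the initiator protease of death receptor apoptosis and a brake on necroptosis, was at -0.28 in SCID and -0.14 in WT against the line, and 0.14 higher in WT than in SCID. The WT value against the line was -0.03 after removal of the GC and length trend. Its 3 transcripts did not stand together against the line, and they differ in where they begin. NM_009812, which starts at 58795374 on chromosome 1, was at -0.05 in SCID and 0.07 in WT. NM_001080126, which starts downstream at 58802502, was at -0.48 in SCID and -0.30 in WT. NM_001277926, listed with the same start, was at -0.32 in SCID and -0.20 in WT, and its annotated frame has 500 codons against 480 in the other pair. The transcripts of the downstream start were thus below the line and that of the upstream start was near it in both pools. Of the exonic bases of NM_001080126, 90.0% are also in NM_009812, and 66.7% of those of NM_009812 are in NM_001080126. For NM_001277926 the share also in NM_009812 is 90.4%. A read in shared bases fits either start, so whether the starts themselves differed was not tested. Between the pools all 3 were higher in WT, at 0.12 for NM_009812, 0.18 for NM_001080126 and 0.12 for NM_001277926.

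Cflar, encoding c-FLIP, lies beside Casp8 on chromosome 1, its end 36492 bases before the first Casp8 start, and had 7 transcripts with a value. Its mean was 0.14 in SCID and 0.11 in WT against the line, and -0.02 between the pools (0.02 after removal of the GC and length trend, 0.003 as the median transcript). NM_207653, whose annotated frame of 481 codons is the long form, was at 0.10 and 0.11. The means were raised by NR_149258, a non-coding transcript of 2 exons at the start of the gene, at 0.57 in SCID and 0.51 in WT. Over the coding transcripts alone the means were 0.05 and 0.03. NM_001293805, which starts inside the gene at 58730552, went the other way, at -0.13 and -0.24. NM_001289704, NM_001293804, NM_001355056 and NR_149255 lay between 0.04 and 0.16 against the line in both pools. Apart from NR_149258 and NM_001293805, the transcripts of Cflar thus lay close to the line in both pools.

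**Figure D2:**
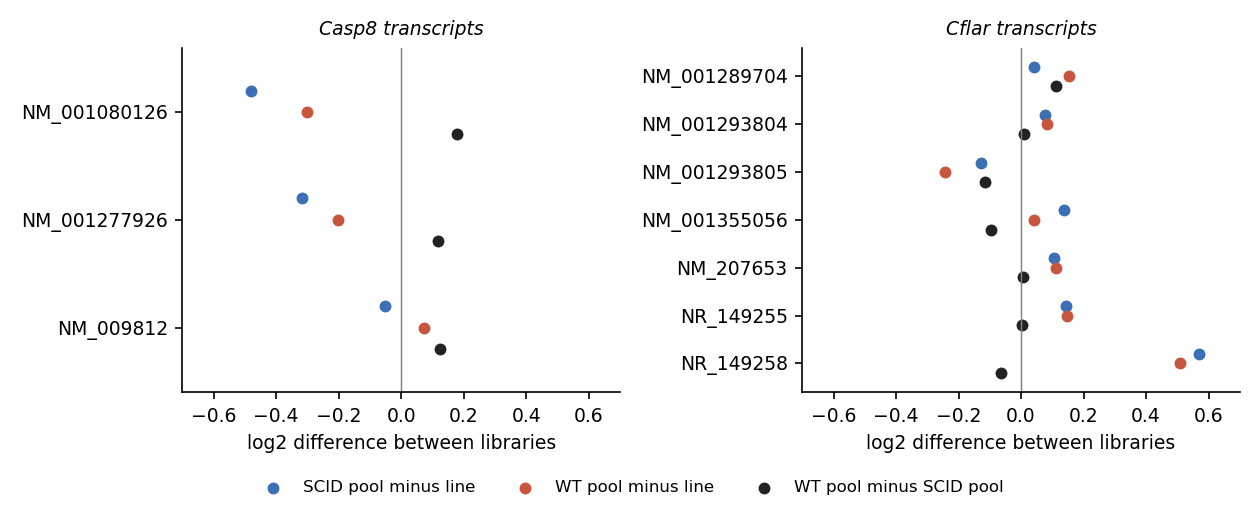
Log2 difference between libraries (horizontal axis) for each transcript of Casp8 (left) and Cflar (right), coloured by comparison. The Casp8 transcripts NM_001080126 and NM_001277926, of the downstream start, lie below 0 against the line and NM_009812 near 0, and among Cflar transcripts NR_149258 lies farthest above 0.

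Ripk1, the kinase shared by the survival, apoptosis and necroptosis complexes, differed little. It was at 0.04 in SCID and 0.12 in WT against the line, or -0.07 and 0.04 once a trend with GC content and transcript length was taken out, and at 0.08 between the pools. It lies on chromosome 13 from 34002874 to 34035170 on the forward strand.

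Ripk3, the necroptosis kinase, had the highest value of the 8 genes when the WT pool was set against the SCID pool. The WT pool was higher by 0.78 (1.72-fold), and only 69 of 11886 genes, 0.581%, stood at or above this value. Against the line the SCID pool was at -0.56 (1.48-fold lower) and the WT pool at 0.22 (1.16-fold higher). The library order was therefore SCID, line, WT, and Ripk3 was the only one of the 8 genes with the pools on opposite sides of the line, as 590 genes (4.96%) had theirs with SCID below and WT above. With SCID as low and WT as high as for Ripk3 there were 3 genes in all: Ripk3, Lpl, which encodes lipoprotein lipase, with a WT minus SCID value of 1.26, and Zfp949, a zinc finger gene, at 1.09. Ripk3 lies on chromosome 14 from 55784995 to 55788857 on the reverse strand, by the coordinates of the authors' deposited table, and no other gene of the table overlaps it.

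Mlkl, the membrane-breaking effector, stood 0.28 higher in the WT pool than in the SCID pool (1.22-fold), with 4.18% of all genes at or above it. Both pools lay below the line, at -0.81 in SCID (1.75-fold lower) and -0.52 in WT (1.44-fold lower), so the order was SCID, WT, line. The SCID value was the farthest from 0 of any of the 8 genes against the line, and 4.43% of all genes were as low or lower. Mlkl lies on chromosome 8 from 111311798 to 111338205 on the reverse strand. The upstream kinase thus had the smallest differences of the necroptosis trio, while Ripk3 and Mlkl had their lowest RNA in the SCID library.

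None of the 8 genes reached 2-fold in any comparison. Over all genes 3.65% were higher and 2.62% lower by 2-fold in the SCID pool against the line, 4.12% and 2.03% in the WT pool against the line, and 0.303% and 0.0168% between WT and SCID, so a count of 0 among 8 lies near the background. At 1.5-fold, 1 of 8 was lower in SCID against the line (Mlkl), where 11.0% of all genes were higher and 9.43% lower. At the same threshold 1 of 8 was lower in WT against the line (Tnfrsf10b), where 11.3% of all genes were higher and 8.36% lower. Between the pools 1 of 8 was higher in WT by 1.5-fold (Ripk3), against 1.10% of all genes higher and 0.177% lower. The median of the 8 was -0.38 for SCID against the line, where that of all genes was -0.02. It was -0.01 for WT against the line, equal to that of all genes, or 0.01 after removal of the GC and length trend. It was 0.13 for WT against SCID, where that of all genes was 0.004, and 6 of the 8 were above 0 as were 51.5% of all genes. The distance from 0 was larger than the pooled SD between transcripts in 4 of 8 genes for SCID against the line (Tnfrsf10b, Fadd, Ripk3 and Mlkl), in 3 for WT against the line (Tnfrsf10b, Fadd and Mlkl) and in 2 for WT against SCID (Ripk3 and Mlkl). Of all genes 44.5%, 45.1% and 10.9% lay beyond the same SD, so the counts against the line are near the background, and this SD is not a spread between libraries.

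**Figure D3:**
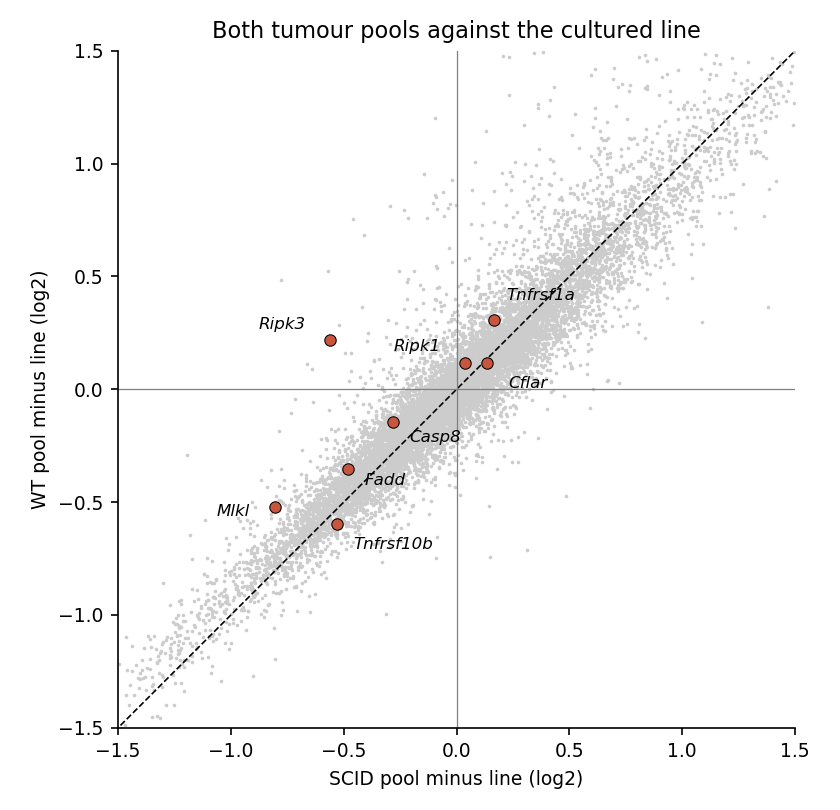
Each gene's log2 difference from the line in the SCID pool (horizontal axis) and in the WT pool (vertical axis), with the 8 genes in red and other genes in grey; both axes end at 1.5 and genes beyond are not drawn. The dashed diagonal marks equal values: Ripk3, at -0.56 and 0.22, lies far above it, Mlkl above it, and Tnfrsf10b just below it.

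Genes with a pattern most like each gene that reached 1.5-fold were found by the distance between pairs of values against the line, over these 3 libraries. Near Ripk3 were Gas6, a ligand of TAM receptors, at a distance of 0.08, Itgb5, an integrin subunit, at 0.09 and Tmem8 at 0.11. Gas6 was 0.81 higher in WT than in SCID and Itgb5 0.65 higher. Only 2 genes lay within a distance of 0.1 of Ripk3, compared with 36 for Mlkl and 351 for Tnfrsf10b. The nearest to Mlkl were Nol11, a nucleolar protein gene, Slc1a5, a glutamine transporter gene, and Pdss2. The nearest to Tnfrsf10b were Txn1, encoding thioredoxin, Vps54 and Ccdc43.

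Macrophage markers were higher in the same pool as Ripk3. Of 24 listed macrophage and monocyte markers 5 had a value, and all 5 were higher in the WT pool than in the SCID pool, from 0.80 (Cd14) and 0.82 (Mrc1) to 1.26 (Cd68), 1.47 (Cx3cr1) and 1.75 (Apoe). Cd53, the only measured one of 5 pan-leukocyte markers, was 0.76 higher in WT. Macrophages are known to express Ripk3, Mlkl, Tnfrsf1a and Casp8. The part of host cells in the Ripk3 and Mlkl values was not tested, because the summed level of these markers in each library, and which of them are at 0, cannot be had from fold changes. Against culture, where Ripk3 was lower in the SCID pool, 4 of the 5 macrophage markers were above 0 in that pool, with a median of 0.59, and all 5 in the WT pool, with a median of 2.06. In pooled RNA, fewer cells of a type and less RNA per cell cannot be told apart. Fibroblast markers (3 of 15 measured) had medians of 1.61 in SCID and 1.55 in WT against the line. Endothelial markers (4 of 12 measured) had medians of 1.17 and 1.23. The part of such cells in the values against the line was not tested. All 9 listed epithelial genes had a value. They went both ways against the line, with Epcam, an adhesion molecule of epithelia, at 1.25 in SCID and 1.59 in WT and Krt19, a ductal keratin, at -1.01 and -0.95.

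**Figure D4:**
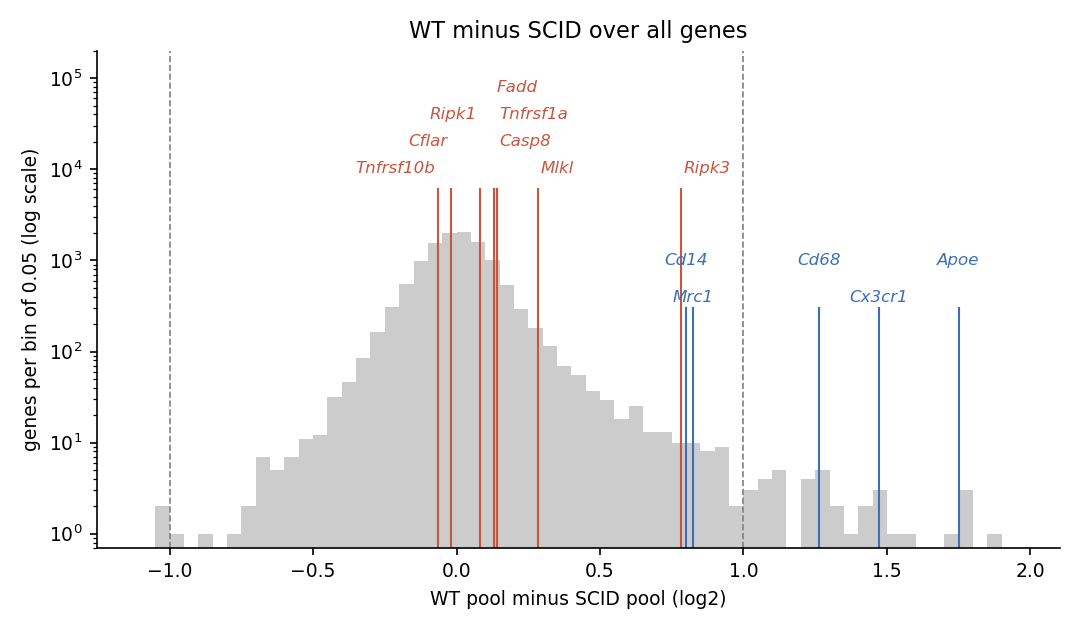
Number of genes (vertical axis, log scale) by WT pool minus SCID pool (horizontal axis, log2), with the 8 genes as red lines, 5 macrophage markers as blue lines and dashed lines at 2-fold. Ripk3 at 0.78 lies beside Cd14 and Mrc1 and apart from the other 7 genes, which lie between -0.06 and 0.28.

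Sequence upstream of the starts is shown for Ripk3, which had the highest WT minus SCID value, and for Casp8, whose transcripts listed at the downstream start had the lower values. RefSeq promoter windows (GRCm38.p6) were found for 8 of the 9 genes, 9 windows in all, and the 250 bases before each start were searched on both strands. The motifs were the gamma-activated site TTCNNNGAA, the interferon-stimulated response element (GAAA, any 2 bases, GAAA), the shorter IRF core AANNGAAA that it contains, and the NF-kB site. Among 32851 windows of this length 7.02% held the first, 2.98% the second, 21.3% the IRF core and 7.25% the NF-kB site. Of the 9 windows 5 held none of the 4: those of Ripk3, Mlkl, Fadd and Cflar, and the window before the upstream start of Ripk1. The share of all windows that hold none was not computed. The Casp8 window held the IRF core at 2 places, 101 and 164 bases before the start, in capitals. The windows are Ripk3 chr14:55788858-55789107 on the reverse strand and Casp8 chr1:58802252-58802501 on the forward strand, 5′ to 3′.
Ripk3 upstream: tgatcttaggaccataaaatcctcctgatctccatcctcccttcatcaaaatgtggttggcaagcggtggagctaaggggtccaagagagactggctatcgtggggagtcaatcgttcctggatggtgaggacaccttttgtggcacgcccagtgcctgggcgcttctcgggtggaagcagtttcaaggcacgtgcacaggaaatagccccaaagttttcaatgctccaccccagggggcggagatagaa
Casp8 upstream: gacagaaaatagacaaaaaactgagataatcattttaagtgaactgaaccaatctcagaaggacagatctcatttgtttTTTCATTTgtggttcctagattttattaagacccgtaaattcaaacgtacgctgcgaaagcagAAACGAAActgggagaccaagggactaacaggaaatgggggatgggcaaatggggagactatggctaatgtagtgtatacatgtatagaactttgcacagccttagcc
A gamma-activated site, in capitals, lay in the windows of Ripk1, at 100 and 3 bases before a start, and of Tnfrsf1a, 236 bases before it. Those are shown with up to 10 bases on each side, at chr13:34002756-34002784, chr13:34002853-34002873 and chr6:125349473-125349497, all on the forward strand. The window of Fas, which had no value, also held a gamma-activated site, 85 bases before its start, and an IRF core at 123.
Ripk1 site 100: agaagctggtTTCCCGGAAggggcggagg
Ripk1 site 3: acttcaaacgTTCCCGGAAat
Tnfrsf1a site 236: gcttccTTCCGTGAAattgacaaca
A match is a run of letters and not a measured site, and these data hold no binding.

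The rest of the pathway was described through 8 gene lists with 159 genes, of which 126 had a value, the 8 genes included. In the SCID pool against the line 5 of 126 were higher (3.97%) and 1 lower (0.794%) by 2-fold. In the WT pool against the line 6 were higher (4.76%) and 1 lower (0.794%). Between the pools 1 was higher in WT (0.794%) and 0 lower. Against the line the shares higher lie near those of all genes (3.65% and 4.12%), and the shares lower are below them (2.62% and 2.03%). Between the pools the share higher rests on 1 gene, where all genes gave 0.303%. The medians over the 126 were 0.02, 0.05 and 0.05. Above 0 were 52.4% and 55.6% of the 126 against the line and 64.3% between the pools, where all genes gave 48.3%, 48.6% and 51.5%; the counts above or below 0 for each list are to be read beside these.

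Among death ligands, 3 of 11 had a value and all were above 0 in each comparison. Tnf, the ligand of TNFR1, was at 1.03 in SCID (2.04-fold) and 1.68 in WT (3.21-fold) against the line, and 0.65 higher in WT than in SCID, so ligand and receptor were both highest in the WT pool. Macrophages, whose markers were also higher in the WT pool, are known to make Tnf, and their part in its values was not tested. Fasl and Tnfsf10, which encode Fas ligand and TRAIL, had no value. Tnfsf12, the ligand TWEAK, was at 0.41 and Tnfsf9, the 4-1BB ligand, at 0.20 between WT and SCID.

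Receptors of the TNF family had a median of 0.17 in SCID and 0.79 in WT against the line over 11 of 21 genes. Taken gene by gene, the WT minus SCID median of the 11 was only 0.05, with 7 above 0 and 4 below. Without Tnfrsf1a and Tnfrsf10b the median in SCID against the line was 0.58. The highest in WT was Tnfrsf1b, encoding TNFR2, which lacks a death domain, at 1.45 (2.74-fold) against 0.85 in SCID. A neighbouring trio on chromosome 7, between 143607685 and 143685875, was higher in both pools than in culture. Tnfrsf22 was at 0.83 and 0.79 and Tnfrsf23 at 0.82 and 0.80 in SCID and WT; both encode decoy receptors of mouse TRAIL that cannot signal death. Tnfrsf26, their neighbour, was at 1.01 in each pool, 2.01-fold. These decoys were thus above culture in the pools in which Tnfrsf10b, the signalling TRAIL receptor, was below it, and none of the trio differed between the pools by more than 0.04. The trio share sequence, so the counting could have split reads among them. Tnfrsf21, encoding DR6, was lower, at -0.89 in SCID and -0.70 in WT. Tnfrsf11a, encoding RANK, a receptor of the osteoclast, macrophage and dendritic lineages as well as of epithelia, had the only 2-fold difference between the pools, 1.10 higher in WT (2.14-fold). The part of host cells in the Tnfrsf1b and Tnfrsf11a values was not tested.

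The adaptors and ubiquitin-editing enzymes of the receptor complex had 32 of 33 genes with a value and none at 2-fold. Tnip2, encoding ABIN-2, an A20-binding protein, was the farthest against the line, at 0.81 in SCID and 0.94 in WT. Traf5, an adaptor of TNF receptors, was the farthest between the pools, 0.56 higher in WT. Of the 32, 23 were above 0 in WT against SCID with a median of 0.08. Genes for the linear ubiquitin complex that restrains death at TNFR1 were near 0 between the pools. Rnf31, which encodes its catalytic subunit, was at 0.04, Rbck1 at 0.10 and Sharpin at 0.05. Birc3, encoding cIAP2, was 0.39 higher and Tnfaip3, encoding A20, 0.27 higher in WT. Chuk was the lowest of the list between the pools, at -0.42.

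The death-inducing complex list had 12 of 13 genes with a value and none at 2-fold. Dedd2, a protein with a death effector domain, was at 0.63 in SCID and 0.82 in WT against the line. Dapk1, the death-associated protein kinase, was 0.53 higher in WT than in SCID. Nol3, encoding the inhibitor ARC, was at -0.58 and -0.51 against the line. Of the 12, 10 were above 0 between WT and SCID, with a median of 0.09.

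The necroptosis list had 23 of 24 genes with a value, none at 2-fold, and Zbp1, the nucleic acid sensor that can engage RIPK3, was the one without. Its medians were -0.07 in SCID and -0.09 in WT against the line and 0.02 between the pools. Ripk3 was the farthest from 0 between the pools and Mlkl the farthest in SCID against the line. Ticam1, the TRIF adaptor that links Toll-like receptors to RIPK3, was at 0.13, Tlr3 at 0.14 and Tlr4 at 0.12 between the pools. Genes for the chaperones HSP90 and CDC37, which hold RIPK3 and MLKL in active form, were below the line in both pools. In SCID and WT, Hsp90aa1 was at -0.32 and -0.40 and Cdc37 at -0.22 and -0.17. Inositol phosphate kinases, a group with some members that make a cofactor of MLKL, were below the line in both pools on this list, except Itpkb. In SCID and WT, Itpk1 was at -0.69 and -0.46, Ipmk at -0.24 and -0.41, Ppip5k1 at -0.07 and -0.09 and Ppip5k2 at -0.21 and -0.30. Itpkb, which makes an earlier intermediate of inositol phosphate metabolism, was at 0.39 and 0.69.

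The membrane repair list holds ESCRT-III and its partners, which shed membrane damaged by MLKL. It had 18 of 19 genes with a value and none at 2-fold. Of the 18, 13 were below 0 in each pool against the line, with medians of -0.12 and -0.13. Chmp6, an ESCRT-III subunit, was the farthest, at -0.81 in SCID and -0.64 in WT. Between the pools the range was -0.19 (Vps4b, the ATPase that disassembles ESCRT-III) to 0.17. Over all genes the SD of WT minus SCID was 0.17, so a range this narrow is not read as a trait of repair genes.

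The caspase and mitochondrial list had 22 of 26 genes with a value. Bmf, a BH3-only activator of cell death, was at 1.56 in SCID (2.95-fold) and 1.75 in WT (3.37-fold), and Pmaip1, encoding NOXA, at 1.23 and 1.02. Birc5, the inhibitor survivin, which is made in dividing cells, was at -1.27 and -1.15. Bid, the link from caspase-8 to mitochondria, was at -0.44 and -0.41. Between the pools the 22 ranged from -0.22 to 0.23 (Bad), where the SD over all genes was 0.17. Of the pyroptosis list 6 of 13 had a value. Pycard, the inflammasome adaptor ASC, was at 1.30 in SCID (2.47-fold) and 1.74 in WT (3.35-fold) and was 0.44 higher in WT. As for Tnf, the part of host cells in the Pycard values was not tested. Gsdmd, the pore of pyroptosis, was 0.22 higher in WT than in SCID, and Gsdme, another gasdermin, was at -0.72 and -0.66 against the line.

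**Figure D5:**
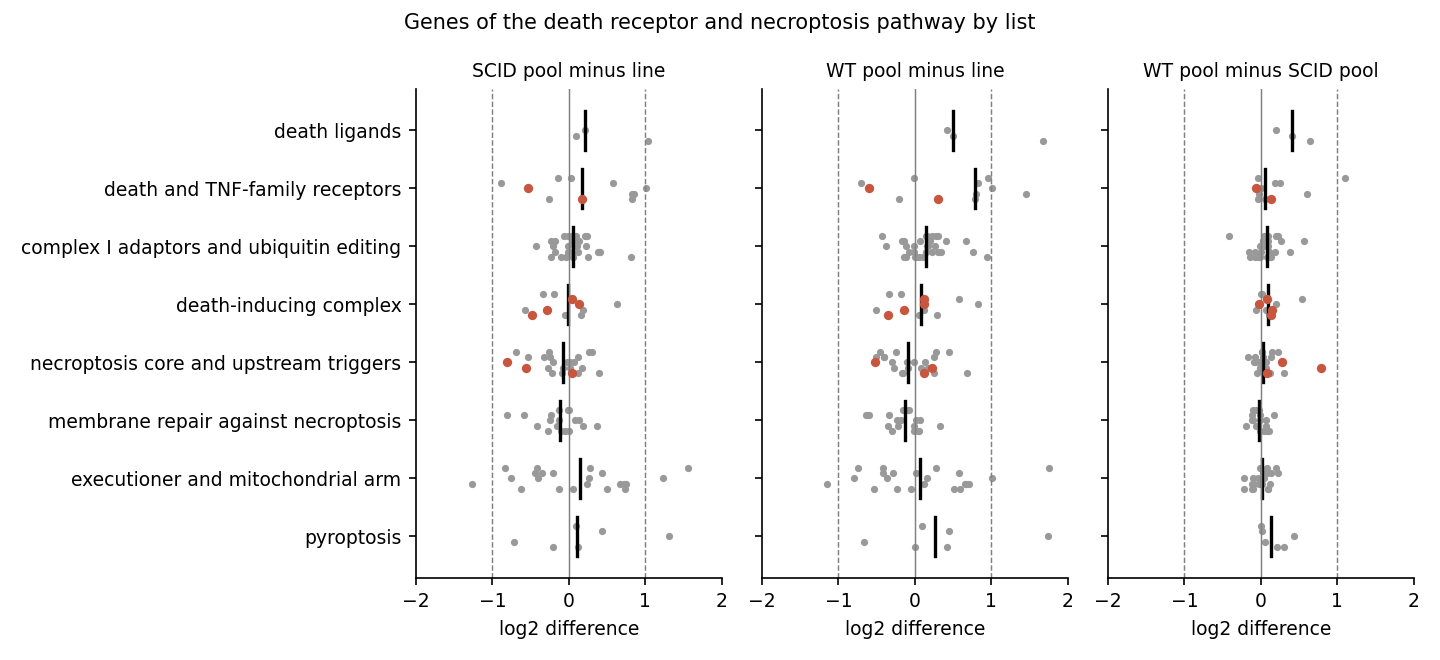
Log2 difference (horizontal axis) of each measured gene in 8 pathway lists, in 3 panels by comparison; black bars are list medians, red points are the 8 genes and dashed lines mark 2-fold. Against the line, genes of the receptor and mitochondrial lists spread to both sides, while between WT and SCID nearly all lie within 0.5 of 0, with Tnfrsf11a past 2-fold, Tnf and Tnfrsf1b beyond 0.6 and Ripk3 the farthest of its list.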

How the data were processed

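Polyadenylated RNA of 3 groups was sequenced as 1 stranded library each, with paired reads of 75 bases and a stated mean depth of 40 M reads, per the labels' protocols. The authors deposited log2 fold changes per RefSeq transcript; the log base is not in the header and was taken from DESeq2 1.20.0, which the submitters' processing notes list with BWA, Partek, R 3.5.1 and mm9, in no stated role. Any shrinkage or row filter has no source here. The third column equals the first minus the second (largest gap 1e-14) and was turned in sign to give WT minus SCID. Although mm9 is listed, positions match GRCm38 (99.7% of 17761 transcripts inside their RefSeq gene, widened by 1000 bases on each side), with the end taken as the stop minus 1.

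A gene's value is the mean over its transcripts (8288 genes had 1). The 9 genes, 8 pathway lists and 10 marker lists were chosen with earlier results of these data known. Named from each list and comparison were genes past 2-fold (at most 4) or else the farthest from 0; any further gene was picked with its values in view. Calculations used Python 3.11.15, pandas 2.3.3 and numpy 2.4.6, and the steps were tested on simulated data. Some items are not reported here. Alternatives were the median, farthest, coding or single transcript, centring, a quadratic fit to GC content and log10 length taken out (GENCODE vM21 sequence for 93.2% of transcripts), thresholds of 1.5-fold and 3-fold, and lists without the 8 genes.

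Of the other marker lists, medians of T cell genes were 0.23 in SCID, 0.22 in WT and -0.01 between the pools (2 of 19 measured), Eomes of the NK list at -0.61, -0.63 and -0.02, Zbtb46 of the dendritic list at 0.59, 0.51 and -0.07, fibroblast genes at 1.61, 1.55 and -0.06 (3 of 15), endothelial genes at 1.17, 1.23 and 0.09 (4 of 12), and epithelial genes at -0.31, -0.19 and 0.17. Between the pools the fibroblast genes went different ways, with Col1a1 at -0.71, Has1 at -0.06 and Ly6c1 at 0.41. No gene of the B cell and neutrophil lists had a value.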

Additional observations from a re-analysis of the deposited data

Results flagged for a closer look

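Ripk3 stood on opposite sides of the cultured line in the 2 tumour pools, at -0.56 in SCID and 0.22 in WT, a difference of 0.78 between the pools. Each pool is 1 library, so this difference was not tested. Setting the median gene to 0 gave 0.777, but that shift is only 0.004 and could not have changed the direction. After removal of the GC and length trend the difference was 0.741 and kept its direction. Macrophage markers were higher in the WT pool by 0.80 to 1.75, and their part in the Ripk3 value was not tested.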

How the results depend on the processing

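No paired analysis was possible because each group has 1 library. Scaling, pseudocount and counting alternatives need counts and were not run. Changes were set against the pooled SD between transcripts, since no replicate spread exists. Of 150 recomputed values of single genes 145 moved by less than that SD and 5 by more, all of Cflar, at its transcripts NR_149258 (0.57 and 0.51 in SCID and WT against the line, also its farthest transcript) and NM_001293805 (-0.24 in WT against the line). Many of the 150 could not move far. All measured genes of the set but Casp8 and Cflar have 1 transcript, for which the median, farthest and coding settings return the main value. Centring subtracts only the median of all genes, -0.015, -0.014 and 0.004 in the 3 comparisons. The count of 145 is therefore in part fixed in advance. The sign changed in 10 of the 150, all of values near 0 or single transcripts of Casp8, Cflar and Ripk1. Of 159 recomputed medians 158 moved by less, and the receptor median in SCID against the line became 0.58 without Tnfrsf1a and Tnfrsf10b; 2 medians changed sign, both within 0.02 of 0. Among the 8 genes, counts changed from 0 to 1 at 1.5-fold for lower in SCID and in WT against the line and for higher in WT against SCID, and stayed 0 in the other alternatives. Over the 126 pathway genes, 14 were higher and 9 lower in SCID against the line at 1.5-fold, and 0 and 0 at 3-fold. In WT against the line 19 were higher and 8 lower at 1.5-fold, and 3 and 0 at 3-fold. Between WT and SCID 4 were higher at 1.5-fold and 0 at 3-fold. The 1.5-fold counts are 11.1% and 7.14% of the 126 in SCID, 15.1% and 6.35% in WT and 3.17% between the pools, where all genes gave 11.0% and 9.43%, 11.3% and 8.36%, and 1.10%. At 3-fold all genes gave 0.757% and 0.505%, 0.984% and 0.513%, and 0.0421% higher between the pools. With the farthest transcript of each gene the lower counts became 2 in SCID and 2 in WT against the line, and the higher count between the pools 2. GC content and length explained 7.01% of the variance of WT minus SCID over transcripts. The depth of each library is unknown, so it is not known how few reads stand behind a value.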

Other observations

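The BCL2 family genes with a value went both ways against the line; they were gathered from the mitochondrial list after the values were seen, and no list of them was tested. The pore formers were at -0.42 and -0.41 (Bax) and at -0.63 and -0.53 (Bak1) in SCID and WT. Of the protectors, Bcl2 was at 0.66 and 0.67, Mcl1 at 0.43 and 0.57, Bcl2l2 at 0.28 and 0.27 and Bcl2l1 at -0.41 and -0.37. The BH3-only genes, which set off the pore formers, were mixed. Bmf and Pmaip1 passed 2-fold in both pools, as given above, and Bbc3 (PUMA) was at 0.74 and 0.65 and Bcl2l11 (BIM) at 0.49 and 0.59. Bid was at -0.44 and -0.41, and Bad at -0.21 in SCID and 0.02 in WT. Bcl2l14 was at 0.73 and 0.51. Between WT and SCID these genes ranged from -0.22 (Bcl2l14) to 0.23 (Bad).

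Genes for proteins that mitochondria can release were below 0 in both pools against the line. In SCID and WT, Cycs (cytochrome c) was at -0.76 and -0.80, Htra2 at -0.83 and -0.75 and Diablo at -0.35 and -0.28.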
